A study of Mus musculus with 47 samples.

Results

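Tubulin genes code for the alpha and beta chains that make up microtubules and for the gamma chain that starts them. The 10 genes described here are Tuba1a, Tuba1b, Tuba1c, Tubb2a, Tubb2b, Tubb3, Tubb4b, Tubb5, Tubb6 and Tubg1. They were taken by name, as the RefSeq mRNA transcripts whose 3′ UTR was counted, and each was represented by 1 transcript with 1 counted interval. They are 10 of the 18854 mRNA genes with a symbol in the tables.

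The libraries were made by SLAM-seq, in which the uridine analog 4-thiouridine (4sU) enters new RNA, is alkylated after extraction and is then read as a T>C conversion. The cells were P19, an established mouse embryonal carcinoma line with a wild-type genotype, either undifferentiated (D0, kept in serum medium) or after 6 days in NDiff 227 medium with 500 nM retinoic acid (D6), which turns them towards neurons. In the anabolic series 4sU was added and cells were collected over time. In the catabolic series cells took up 4sU for 15 h and were then collected over time after the label was withdrawn. The dose was 20 µM at D0 and 500 µM at D6, so label and state cannot be told apart in any absolute labeling rate. The hours are 0, 3, 6 and 9 h in the methods and 0, 1, 3 and 9 h in the sample labels. The methods' hours are used here, half-lives are also given on the labels' hours, and slopes are where a call changed with them. All cells derive from 1 line, and the libraries come from whole cultures. There were 24 D0 and 23 D6 libraries in 16 groups of 3, except for 2 libraries at D6 after 6 h of decay. The study gives these as biological replicates. Libraries are called here by state and by the number in their label.

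Alpha and beta tubulin form dimers that add to the ends of microtubules, and vertebrates make each chain from several genes whose proteins, the isotypes, differ mostly at the carboxyl end. Neurons depend on microtubules for axons, dendrites and transport, and are known for their own set of isotypes, with Tubb3 as the classical neuronal marker and Tuba1a and Tubb2b as abundant forms in developing neurons. Tubulin mRNAs are also known for autoregulation. When free tubulin rises, the factor TTC5 recognizes the first residues of the growing tubulin chain on the ribosome and, with SCAPER and the CNOT11 subunit of the CCR4-NOT deadenylase, the mRNA is degraded.

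Since this recognition acts on the start of the protein, the first 30 coding bases of the members are shown, with the first 4 codons, 12 bases, in capitals. They were read from the GENCODE transcripts of GRCm38, the assembly that mm10 names, for the 9 members for which sequence is given.
Tuba1a: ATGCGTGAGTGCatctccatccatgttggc
Tuba1b: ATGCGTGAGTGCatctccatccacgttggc
Tuba1c: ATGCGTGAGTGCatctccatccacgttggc
Tubb2a: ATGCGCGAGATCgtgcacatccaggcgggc
Tubb2b: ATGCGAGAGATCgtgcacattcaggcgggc
Tubb3: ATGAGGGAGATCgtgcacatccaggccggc
Tubb4b: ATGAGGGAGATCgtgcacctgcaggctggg
Tubb5: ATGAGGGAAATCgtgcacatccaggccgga
Tubg1: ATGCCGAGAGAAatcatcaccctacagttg

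Of these 9 members, 8 open with ATGCGNGA or ATGAGNGA, where N is any base, the exception being Tubg1. The same letters open 248 of 26688 coding transcripts, or 0.929%, most of them not tubulins. Tuba1b and Tuba1c did not differ in these 30 bases, and Tuba1a differed from each of them at 1 base. Among the beta members the count of differing bases ran from 2, for Tubb2a against Tubb2b and for Tubb3 against Tubb5, to 6. In the GENCODE 3′ UTRs of the 9 members, no stretch of 30 bases was shared between any of them. The counted intervals themselves and the rest of the genome were not searched. Reads that mapped to several places were not counted, and the multimapped count in the tables was 0.

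All counted intervals are 3′ UTR exons in mm10. On chromosome 15 lie Tuba1a (NM_011653.2) at chr15:98949847-98950033 (- strand, 187 bases), Tuba1b (NM_011654.2) at chr15:98931429-98931581 (- strand, 153 bases) and Tuba1c (NM_009448.4) at chr15:99038010-99038105 (+ strand, 96 bases). The first of these 3′ UTRs is 18266 bases from the second and 87977 bases from the third. On chromosome 13, Tubb2a (NM_009450.2) at chr13:34074278-34074467 (- strand, 190 bases) and Tubb2b (NM_023716.2) at chr13:34127008-34127470 (- strand, 463 bases) are 52541 bases apart. Tubb3 (NM_023279.2) was counted at chr8:123421683-123422010 (+ strand, 328 bases), Tubb4b (NM_146116.2) at chr2:25222158-25222307 (- strand, 150 bases), Tubb5 (NM_011655.5) at chr17:35833920-35834981 (- strand, 1062 bases) and Tubg1 (NM_134024.2) at chr11:101126230-101126419 (+ strand, 190 bases). None of these intervals overlaps the 3′ UTR of another gene in the tables. The interval of Tubb2b is shorter than the 723 bases that GENCODE gives its 3′ UTR, so reads beyond it are not in the count.

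Reads on 3′ UTRs ran from 1489528 to 11677046 per library (median 5750402). The cell state was checked on marker lists. The summed level of 10 neuronal markers was 457 to 551 CPM (a gene's reads per 1000000 reads on 3′ UTRs) at D0 and 7883 to 9397 CPM at D6 without 4sU, and 8 of the 10 rose. In the same libraries the summed level of 10 pluripotency markers was 1220 to 1791 CPM at D0 and 8.05 to 30.9 CPM at D6. Of these, Nanog, Zfp42 and Dppa5a had no read at D6, and Zfp42, Dppa5a and Fgf4 none at D0. Map2 (log2 change 5.25) and Dcx (7.81), both of neurons, rose, and Pou5f1, a core pluripotency factor (-6.84), fell. Markers of neural progenitors summed to 1809.8 to 1878 CPM at D0 and 3270.3 to 3498 CPM at D6, and 3 of 8 rose. Glial markers summed to 18.4 to 65.6 CPM at D0 and 32.2 to 64.4 CPM at D6, with Aqp4, S100b, Aldh1l1 and Olig2 at 0 in both. Fibroblast markers were at 6.36 to 64.9 CPM at D0 and 0.657 to 8.46 CPM at D6, with Col3a1, Dcn and Lum at 0 and none of 2 tested called (edgeR 0, with 1 at an unadjusted p under 0.05 and 1 by DESeq2). Mesoderm and muscle markers were at 16.6 to 24.5 CPM at D0 and 0 to 9.44 CPM at D6, without overlap, with Tnnt2, Myh6 and Myl7 at 0. The 1 tested, Actc1, a muscle actin named after its values were seen, was at 13.7 ± 5.997 CPM (SD, n = 3) at D0 and fell, with no read at D6. Endoderm markers reached at most 8.11 CPM. Cell cycle genes summed to 1238 to 2047 CPM at D0 and 712 to 1052 CPM at D6. The part that the mixture of cells and their division have in the results below was not tested.

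Some libraries stood apart. D6 replicate 14, with the fewest reads and only 10842 detected mRNA transcripts, correlated with the other library of its group at r = 0.556. D6 replicate 53 (1504166 reads) held Tubb2b at 1937 CPM, against 7927 and 7470.5 CPM in its group. D0 replicates 26, 56 and 72, each from another group, shared a lower Tuba1a and a higher Tuba1c and Tubg1 than the other libraries of their group. In these 3 libraries the 100 most read transcripts took 14.5% to 15.6% of the reads, against 12.2% to 13.3% in the other 21 D0 libraries. Results that these libraries move are given with and without them.

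The question of which tubulin genes changed with differentiation was asked first in the cells that had never seen 4sU, with 3 libraries in each state. Of the 10 members, 3 rose and 4 fell at D6. The 3 that rose were Tuba1a, Tubb2b and Tubb3, and the 4 that fell were Tuba1b, Tuba1c, Tubb4b and Tubb6. Tubb2a, Tubb5 and Tubg1 did not pass the test. Over all genes the same test called 13.1% of 16091 transcripts, with a median log2 change of -0.04, while the median over the members was 0.0027. All values are shares of a library's reads, and in whole cultures fewer cells of a type and less RNA per cell cannot be told apart.

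**Figure D1:**
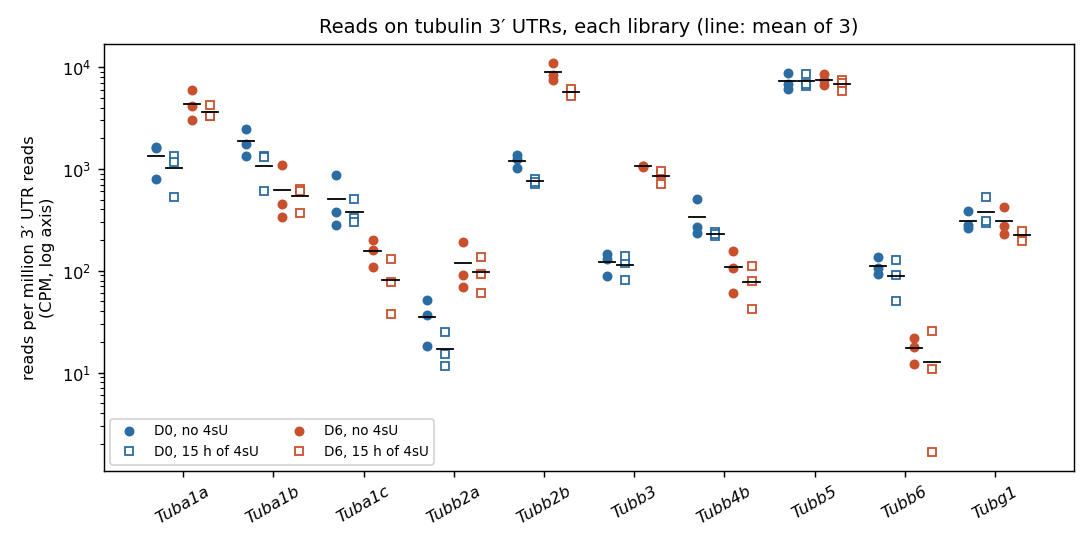
Reads on the 3′ UTR of each tubulin gene in CPM (log axis) in each of 3 libraries per group, at D0 (blue) and D6 (red), without 4sU (filled circles) and after 15 h of 4sU (open squares), with the mean of 3 as a line. Tuba1a, Tubb2b and Tubb3 sit higher at D6, Tuba1c, Tubb4b and Tubb6 lower, and Tubb5 overlaps between the states.

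Among the alpha genes, Tuba1a, the main alpha isotype of young neurons, was at 1584, 796 and 1634 CPM in the D0 libraries and at 4141, 3026 and 5918 CPM at D6. All D6 libraries lay above all D0 libraries, and D0 replicate 56 was the lowest. The means differed by 3.26-fold. The log2 change was 1.72 ± 0.30 (SE), adjusted p = 0.00333, and it passed in each of the 10 alternatives (1.45 to 1.91). Tuba1b, a broadly expressed alpha gene, was at 1748, 1344 and 2479.8 CPM at D0 and 451, 340.3 and 1083 CPM at D6. The groups did not overlap, though D6 replicate 39 came near the lowest D0 library. The log2 change of -1.56 ± 0.40 (SE), adjusted p = 0.0258, was lost without D6 replicate 37 (-1.36, adjusted p = 0.128), D6 replicate 38 (-1.28, adjusted p = 0.104) or D0 replicate 57 (-1.35, adjusted p = 0.0664) (adjusted p 3.17e-04 to 0.128 over 10 alternatives). Without D6 replicate 39 it was larger, at -2.21. Tuba1c, also broadly expressed, was at 281, 872 and 379 CPM at D0 and 109.6, 201 and 159 CPM at D6. D0 replicate 56 was far above the other D0 libraries, and the D6 libraries were still below all of them. The log2 change was -1.77 ± 0.47 (SE), adjusted p = 0.03298, and was lost without D6 replicate 37 (-1.54, adjusted p = 0.142), D6 replicate 38 (-2.01, adjusted p = 0.0698), D6 replicate 39 (-1.73, adjusted p = 0.114) or D0 replicate 56 (-0.995, adjusted p = 0.0688) (adjusted p 0.00215 to 0.142 over 10 alternatives).

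Of the members, Tubb3 and Tubb2b had the largest changes upward, by 8.75-fold and 7.36-fold in their means. Tubb3, the class III beta tubulin used to stain neurons, was at 146, 88.7 and 130 CPM at D0 and at 1049, 1075 and 1066 CPM at D6. The D6 libraries were nearly level and each was well above the highest D0 library. The log2 change was 3.14 ± 0.25 (SE), adjusted p = 2.42e-05 (3.02 to 3.25 over 10 alternatives, each of which passed). Tubb2b, a beta isotype of migrating and young neurons, was at 1016, 1368 and 1239 CPM at D0 and at 7443, 8361 and 10847 CPM at D6, again without overlap. Its log2 change was 2.86 ± 0.25 (SE), adjusted p = 4.56e-05, and passed in each alternative (2.71 to 3.05). Tubb2a, its neighbor on the chromosome, had few reads, at 36.5, 18.2 and 51.8 CPM at D0 and 91.6, 68.6 and 193 CPM at D6. The groups did not overlap, but the spread was wide and the log2 difference of 1.76 ± 0.52 (SE) had an adjusted p of 0.0506. This value sat at the threshold: it was 0.0156 with DESeq2, 0.0485 with other size factors, 0.0268 without a filter on low counts and 0.0483 with 1 transcript per 3′ UTR (adjusted p 0.0156 to 0.2796 over 10 alternatives).

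Tubb5, the broadly expressed class I beta tubulin, did not pass the test. It was at 6118, 8779.7 and 6881 CPM at D0 and 7492, 8477 and 6645 CPM at D6, with overlapping groups. The log2 difference was 0.030 ± 0.24 (SE), adjusted p = 0.959, and ran from -0.12 to 0.29 over the alternatives, the highest being without D0 replicate 56. Tubb4b, another broadly expressed beta isotype that is also used in cilia, was at 235, 509.7 and 271 CPM at D0 and 60.5, 107 and 157 CPM at D6. D0 replicate 56 was again the high library, and the groups did not overlap. The log2 change was -1.69 ± 0.45 (SE), adjusted p = 0.0331, and was lost without D6 replicate 37 (-1.39, adjusted p = 0.122), D6 replicate 38 (-1.701, adjusted p = 0.109) or D0 replicate 56 (-1.15, adjusted p = 0.0809) (adjusted p 0.00337 to 0.122 over 10 alternatives).

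Tubb6, a beta isotype found mainly outside the nervous system, has its 3′ UTR (NM_026473.2) on chromosome 18 from 67402377 to 67402749 on the + strand, and no sequence is given for it. It was at 107, 93.1 and 135 CPM at D0 and 21.9, 17.8 and 12.04 CPM at D6, without overlap. The log2 change was -2.69 ± 0.47 (SE), adjusted p = 0.00383, and passed in each of the 10 alternatives (-2.88 to -2.47). Tubg1, the gamma chain that nucleates microtubules within the gamma-tubulin ring complex, was at 284, 385 and 261 CPM at D0 and 231, 420 and 276 CPM at D6. The groups overlapped, and the log2 difference of -0.025 ± 0.33 (SE) (adjusted p = 0.973) lay on both sides of 0 over the alternatives, from -0.34 to 0.27, the highest again without D0 replicate 56.

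Over all 47 libraries, whatever their 4sU exposure, D0 and D6 did not overlap for 4 members. Of the 16091 transcripts tested without 4sU, 5.02% did not overlap in this way, 2.31% higher and 2.72% lower at D6. Tubb3 was at 81.02 to 182 CPM (median 139) at D0 and 704 to 1639.6 CPM (median 1071) at D6. Tubb2b was at 701 to 1655 CPM (median 934) and 1937 to 12257 CPM (median 7443). The other 2 were lower at D6: Tuba1c was at 274 to 872 CPM (median 378) against 0.671 to 201 CPM (median 109.6), and Tubb4b was at 180.4 to 509.7 CPM (median 261) against 3.36 to 157 CPM (median 89.8). The lowest values of Tuba1c and Tubb4b at D6 came from D6 replicate 14. Tuba1a overlapped through its D6 replicate 14, the lowest D6 library at 1492 CPM. Tubb6 was at 50.2 to 135.9 CPM (median 91.1) at D0 and 0 to 128.5 CPM (median 17.8) at D6, and D6 replicates 45 (128.5 CPM) and 12 (63.5 CPM) lay within the D0 range. Tuba1b, Tubb2a and Tubg1 overlapped as well. Tubb5 had nearly the same range in both states, 6118 to 8779.7 CPM (median 7188) and 5786 to 9453 CPM (median 7492).

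The isotype make-up of the tubulin reads turned over with these changes. Of the reads on the 3 alpha genes, Tuba1a held 35.5% ± 8.74 (SD, n = 3) in the D0 libraries without 4sU, and 85.2% ± 2.73 (SD, n = 3) in those of D6. Tuba1b went from 49.4% ± 5.36 (SD, n = 3) to 11.4% ± 3.21 (SD, n = 3) and Tuba1c from 15.1% ± 12.03 (SD, n = 3) to 3.39% ± 1.94 (SD, n = 3). Without D0 replicate 56 the D0 share of Tuba1c was 8.11% and that of Tuba1a 40.1%. Of the reads on the 6 beta genes, Tubb5 went from 79.9% ± 0.922 (SD, n = 3) to 42.8% ± 6.63 (SD, n = 3). Tubb2b went from 13.4% ± 0.815 (SD, n = 3) to 49.9% ± 6.47 (SD, n = 3), so that at D6 its share of reads was close to that of Tubb5. Tubb3 went from 1.41% ± 0.5503 (SD, n = 3) to 6.02% ± 0.436 (SD, n = 3), and Tubb4b from 3.63% ± 0.923 (SD, n = 3) to 0.598% ± 0.228 (SD, n = 3). Tubb2a and Tubb6 were minor, at 0.413% and 1.27% of the beta reads at D0 and 0.656% and 0.0991% at D6. These shares restate the read levels as parts of a whole and were not tested.

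**Figure D2:**
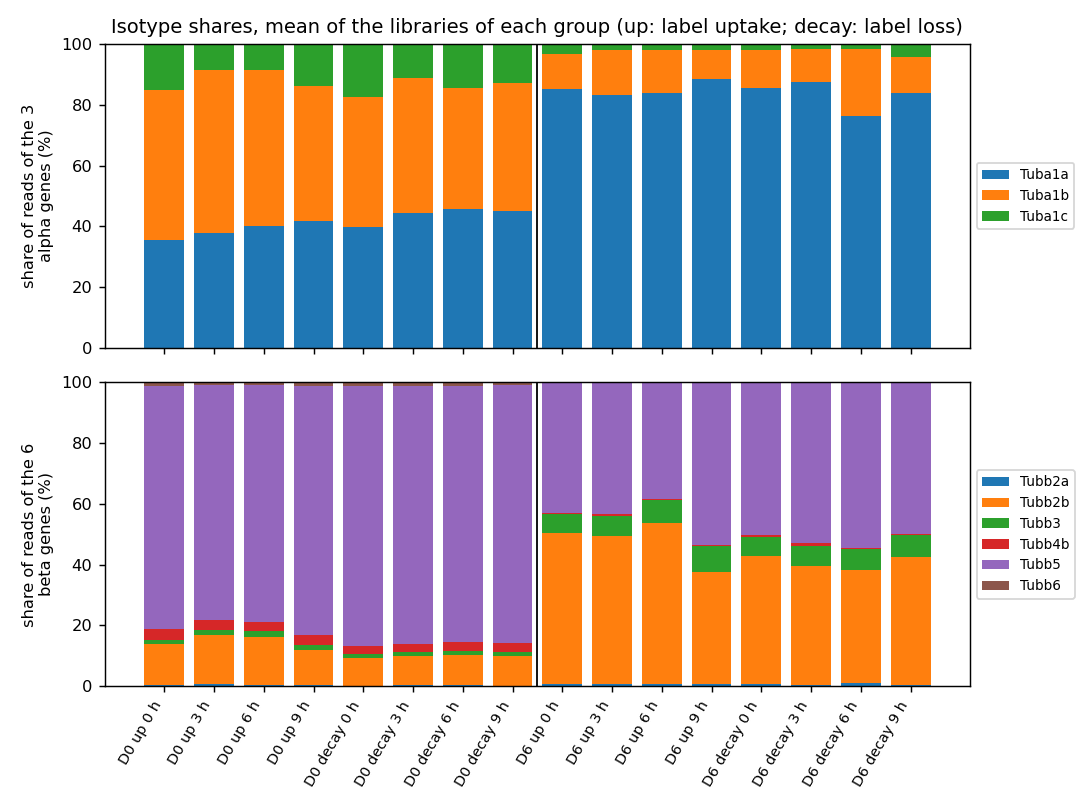
Mean share (%) of each gene in the reads of the 3 alpha genes (top) and of the 6 beta genes (bottom), by state, series (up, label uptake; decay, label loss) and hour. Tuba1a holds most alpha reads in every D6 group, and Tubb2b and Tubb3 take a larger part of the beta reads at D6 than at D0.

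Over all libraries the share of Tuba1a was 26.4% to 49.5% at D0 and 72.6% to 90.8% at D6, and that of Tubb5 was 75.7% to 88.3% and 35.1% to 65.7%. The share of Tubb2b was 7.38% to 17.8% at D0 and 18.8% to 57.3% at D6, the lowest D6 value being that of D6 replicate 53. The share of Tubb3 was 0.817% to 1.94% and 5.64% to 13.7%. None of these 4 shares of reads overlapped between the states. Because the counted 3′ UTRs differ in length, from 96 to 1062 bases, the shares were also computed on reads per base of 3′ UTR. On that scale Tuba1a held 80.6% of the alpha signal at D6. Of the beta signal per base, Tubb2b held 20.9% at D0 and 61.7% at D6, Tubb5 54.5% and 23.3%, and Tubb3 3.11% and 10.6%. Per base, Tubb2b thus held the largest mean share at D6. Over all libraries its share per base overlapped between the states, at 13.1% to 27.2% at D0 and 26.2% to 66.9% at D6, while those of Tuba1a, Tubb3 and Tubb5 did not. The libraries count reads from transcript ends, for which reads per transcript need not grow with length.

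The summed level of the 6 beta genes was higher at D6, that of the alpha genes overlapped, and neither was tested. The 6 beta genes went from 9075 ± 1631 CPM (SD, n = 3) to 17729 ± 1419.8 CPM (SD, n = 3), and the groups did not overlap. The 3 alpha genes went from 3706 ± 744 CPM (SD, n = 3) to 5143 ± 1837 CPM (SD, n = 3), with overlap. All 10 members together held 1.31% of 3′ UTR reads at D0 and 2.32% at D6.

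The cells that had taken up 4sU for 15 h gave a separate set of 3 libraries per state, in which the dose differed along with the state. Here 4 members rose (Tuba1a, Tubb2a, Tubb2b, Tubb3) and 4 fell (Tuba1b, Tuba1c, Tubb4b, Tubb6), with 14.9% of 15655 transcripts called overall. Tuba1a was at 1346, 534 and 1174 CPM at D0 and 3333, 4232 and 3304 CPM at D6, a log2 change of 1.76 ± 0.27 (SE) (adjusted p = 0.00142). Tubb2b was at 799, 713 and 746 CPM and 5658, 6126 and 5136 CPM, a log2 change of 2.798 ± 0.17 (SE) (adjusted p = 1.72e-06). Tubb3 was at 81.02, 119 and 139 CPM and 883, 952 and 704 CPM, a log2 change of 2.798 ± 0.28 (SE) (adjusted p = 8.25e-05). These 3 neuronal isotypes stood apart between the states in every library. Tuba1c was at 331, 505 and 304 CPM at D0 and 130.4, 77.4 and 37.6 CPM at D6, a log2 change of -2.34 ± 0.45 (SE) (adjusted p = 0.00518). Calls for these 4 genes held in each of the 10 alternatives.

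The other 4 calls were less stable. Tubb2a, which had narrowly missed the threshold without 4sU, was at 24.8, 11.5 and 15.4 CPM at D0 and 135, 60.9 and 92.4 CPM at D6. Its log2 change was 2.39 ± 0.56 (SE) (adjusted p = 0.0147) and was lost without D6 replicate 7 (2.09, adjusted p = 0.09896). Tubb4b, at 219.8, 239 and 227 CPM and 79.4, 41.7 and 112 CPM, changed by -1.67 ± 0.38 (SE) (adjusted p = 0.0127), a call lost without D6 replicate 7 (-1.65, adjusted p = 0.0605). Tuba1b, at 1329.5, 600.2 and 1296 CPM and 371, 634 and 607 CPM, overlapped between the states through D0 replicate 26. Its log2 change of -1.08 ± 0.30 (SE) (adjusted p = 0.0315) was lost without D6 replicate 7 (-0.85, adjusted p = 0.15997), D6 replicate 8 (-1.18, adjusted p = 0.0692), D6 replicate 9 (-1.13, adjusted p = 0.0869), D0 replicate 25 (-0.88, adjusted p = 0.122) or D0 replicate 27 (-0.95, adjusted p = 0.125), and with 1 transcript per 3′ UTR (-0.996, adjusted p = 0.0502) (adjusted p 0.00276 to 0.15997 over 10 alternatives). Tubb6, at 127, 50.2 and 91.4 CPM and 1.66, 25.5 and 10.8 CPM, changed by -2.91 ± 0.85 (SE) (adjusted p = 0.0411), a call lost without D6 replicate 7 (-2.35, adjusted p = 0.0718), D6 replicate 9 (-2.78, adjusted p = 0.121), D0 replicate 25 (-2.56, adjusted p = 0.139) or D0 replicate 27 (-2.902, adjusted p = 0.105). Without D6 replicate 8 it was -3.92 and passed. Tubb5 and Tubg1 did not pass. The log2 difference of Tubb5 was -0.23 ± 0.19 (SE) (adjusted p = 0.516), and that of Tubg1 was -0.90 ± 0.32 (SE) (adjusted p = 0.0915) with 292, 535 and 310 CPM at D0 and 232, 248 and 194 CPM at D6. Without D0 replicate 26 they were -0.0040 for Tubb5 and -0.45 for Tubg1, and neither passed.

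**Figure D3:**
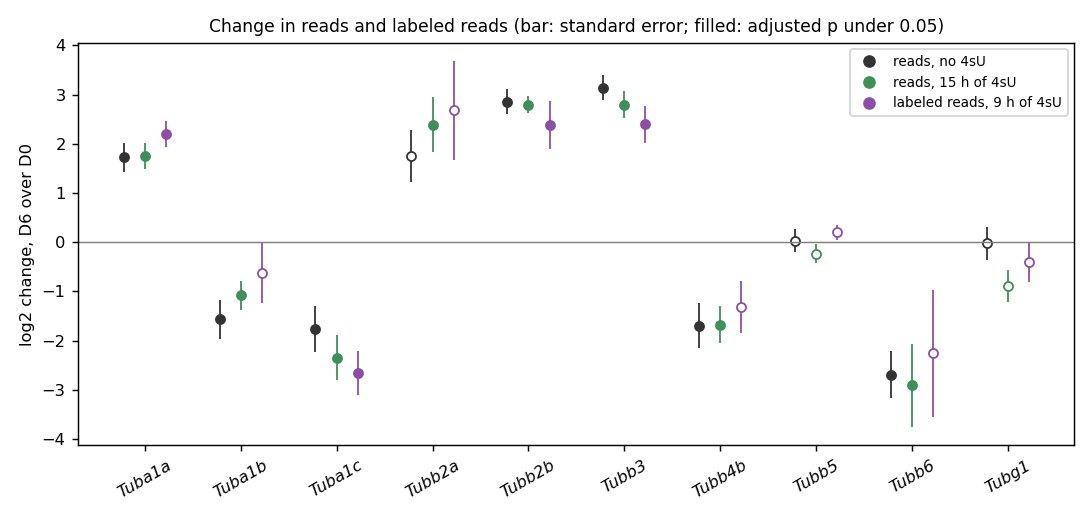
Log2 change of D6 over D0 for each tubulin gene in reads without 4sU (black), reads after 15 h of 4sU (green) and labeled reads after 9 h of 4sU (purple). Bars are standard errors, and filled points have an adjusted p under 0.05. Tuba1a, Tubb2b and Tubb3 are above 0 and filled in all 3 comparisons, and Tuba1c is below 0 and filled in all 3.

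Since 4sU is a uridine analog and tubulin mRNAs respond to the state of the cell, the reads after 15 h of 4sU were also set against those without it within each state. The libraries after 15 h belong to the catabolic series and those without 4sU to the anabolic series. Exposure and series therefore cannot be told apart in this comparison. At D0 no transcript was called by edgeR (0% of 15494, with 319 at an unadjusted p under 0.05, and 3 called by DESeq2). The members with the smallest p were Tubb2b, at -0.68 ± 0.24 (SE) on the log2 scale (adjusted p = 0.9998), and Tuba1b, at -0.78 ± 0.30 (SE) (adjusted p = 0.9998). At D6, edgeR called 8 of 15615 transcripts, 0.0512%, and DESeq2 called 248. Tubb2b was among the 8. It fell from 7443, 8361 and 10847 CPM without 4sU to 5658, 6126 and 5136 CPM after 15 h, without overlap, a log2 change of -0.72 ± 0.12 (SE) with an adjusted p of 0.0476. The call was lost without D6 replicate 7 (-0.73, adjusted p = 0.401), D6 replicate 8 (-0.79, adjusted p = 0.355), D6 replicate 9 (-0.65, adjusted p = 0.392), D6 replicate 38 (-0.73, adjusted p = 0.193) or D6 replicate 39 (-0.56, adjusted p = 0.225), and with other size factors (adjusted p = 0.0520) or 1 transcript per 3′ UTR (0.0576). The adjusted p ran from 0.00373 to 0.401 over 10 alternatives, and the change from -0.86 to -0.56. All 10 members had a value below 0 at D6, with a median of -0.46 against -0.02 over all transcripts, and only that of Tubb2b passed the test. At D0, 8 of the 10 were below 0, with a median of -0.41 against -0.02, and none passed. These comparisons share their libraries with the comparisons of the states above. The change from no 4sU to 15 h, exposure and series together, was not called different between the states for any transcript (0% of 17569, with 846 at an unadjusted p under 0.05, and 96 by DESeq2).

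The reads that carry a conversion after 9 h of 4sU were compared between the states as a composition of the labeled reads alone. They hold what was made less what was lost over these hours, so making and loss cannot be told apart in them. Of the 10 members, 3 were higher at D6 (Tuba1a, Tubb2b, Tubb3) and 1 was lower (Tuba1c), while 4.13% of 13100 transcripts were called overall. The median log2 difference over all transcripts was -0.35, and changes are read relative to it. Some labeled reads are background. Without 4sU 3.57% to 4.67% of reads carried a conversion at D0 and 3.33% to 4.35% at D6, and after 9 h 24.6% to 24.8% did at D0 and 42.8% to 56.7% at D6, so background is a larger part of the labeled reads at D0. For Tubb3 the share without 4sU was 6.01% to 15.4% at D0, against 32.8% to 43.1% after 9 h. For Tubb5 it was 0.503% to 0.772% at D0, against 24.5% to 26.4% after 9 h. The part of the background in the differences was not tested. Tuba1a was at 1175, 1075 and 686 labeled CPM (labeled reads per 1000000 labeled reads) at D0 and 5509, 3717 and 4753 at D6. The groups did not overlap. The log2 change of 2.197 ± 0.27 (SE) (adjusted p = 0.00198) passed in each of 11 alternatives. Tubb3 was at 220.1, 190.1 and 304 labeled CPM at D0 and 1005, 1994 and 1023 at D6, with D6 replicate 53 the highest. Its log2 change of 2.396 ± 0.38 (SE) (adjusted p = 0.00785) was lost without D0 replicate 71 (2.24, adjusted p = 0.0631), and without D6 replicate 53 it was 2.01 and passed. Tubb2b was at 1060.2, 1134 and 1296 labeled CPM at D0 and 8824, 1999 and 8001 at D6, where D6 replicate 53 was far below the other libraries and yet above all D0 libraries. The log2 change of 2.38 ± 0.49 (SE) (adjusted p = 0.0298) was lost without D6 replicate 52 (2.01, adjusted p = 0.0876), D6 replicate 54 (2.18, adjusted p = 0.0909), D0 replicate 70 (2.29, adjusted p = 0.0856), D0 replicate 71 (2.34, adjusted p = 0.114) or D0 replicate 72 (2.49, adjusted p = 0.0905), while without D6 replicate 53 it was 2.78 and passed. Tuba1c was at 456, 515 and 677 labeled CPM at D0 and 76.2, 135 and 68.5 at D6, without overlap. Its log2 change of -2.66 ± 0.44 (SE) (adjusted p = 0.0111) was lost without D6 replicate 52 (-2.56, adjusted p = 0.0632), D6 replicate 54 (-2.48, adjusted p = 0.0535), D0 replicate 71 (-2.72, adjusted p = 0.0604) or D0 replicate 72 (-2.45, adjusted p = 0.0718). Without both D0 replicate 72 and D6 replicate 53, an alternative chosen after seeing the data, 553 transcripts passed and the same 4 members were among them.

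The other members did not pass in labeled reads. The log2 difference was 2.68 ± 1.003 (SE) for Tubb2a (adjusted p = 0.162, and 0.0242 with DESeq2, 0.0242 to 0.378 over 11 alternatives, and 1.83 without D6 replicate 53), -1.31 ± 0.53 (SE) for Tubb4b (adjusted p = 0.195) and -2.25 ± 1.29 (SE) for Tubb6 (adjusted p = 0.434). Without D6 replicate 53, Tubb4b passed (-1.61, adjusted p = 0.0325). With each library left out in turn, the value of Tubb6 ran from -2.99 to -1.74. Tuba1b was at -0.62 ± 0.62 (SE) (adjusted p = 0.731, and -0.16 without D6 replicate 53), Tubg1 at -0.41 ± 0.39 (SE) (adjusted p = 0.719, and -0.16 without D0 replicate 72) and Tubb5 at 0.21 ± 0.15 (SE) (adjusted p = 0.6099). Tubb5 was at 7477, 6979 and 8293 labeled CPM at D0 and 8505, 9634 and 9558 at D6, groups that did not overlap. As shares of labeled reads, Tuba1a went from 43.6% ± 6.77 (SD, n = 3) of the alpha family to 89.8% ± 3.71 (SD, n = 3). Tuba1c held 25.6% ± 9.48 (SD, n = 3) and 1.97% ± 1.26 (SD, n = 3), or 20.1% at D0 without D0 replicate 72 and 1.24% at D6 without D6 replicate 53. In the beta family Tubb5 held 81.1% ± 0.787 (SD, n = 3) and 55.1% ± 11.9 (SD, n = 3), and Tubb2b 12.4% ± 0.749 (SD, n = 3) and 34.8% ± 18.01 (SD, n = 3). Without D6 replicate 53 the D6 shares were 48.4% for Tubb5 and 45.1% for Tubb2b. In total reads of the same libraries Tuba1c held 13.7% ± 5.604 (SD, n = 3) of the alpha reads at D0, less than its mean share of the labeled reads there (10.49% of reads without D0 replicate 72). These shares without a library were added after seeing the data. This difference between shares was not tested.

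The conversion rate, T>C conversions per 100 covered T positions, was first checked without 4sU. Over all 3′ UTRs it was 0.171% at D0 and 0.166% at D6. In these libraries Tubb3 was high in both states, with 0.211, 0.536 and 0.447% at D0 and 0.229, 0.525 and 0.272% at D6. Tubg1 was at 0.146, 0.242 and 0.141% and 0.0131, 0.133 and 0.135%. Tubb5 was at 0.0254, 0.0176 and 0.0298% and 0.0315, 0.0392 and 0.0264%. Counted as reads with a conversion, Tubb2a was high in 2 of its D6 libraries. It was at 0, 0 and 1.42% of reads at D0 and 12.7, 0 and 8.81% at D6. On that measure at D6, Tubb3 was at 6.91, 14.05 and 7.11% and Tubg1 at 0.285, 2.78 and 2.96%. Background conversions are left in the rates below, and for Tubb3 they are a larger part of the D0 rates than for Tubb5. After 15 h of 4sU the overall rate was 1.42% at D0 with the low dose and 4.63% at D6 with the high dose. Tubb5 was at 1.49, 1.42 and 1.29% at D0 and 4.81, 4.96 and 4.39% at D6. Tuba1a was at 0.924, 1.496 and 1.07% and 4.41, 4.57 and 4.03%, Tubb2b at 1.06, 1.13 and 1.04% and 3.84, 4.05 and 3.44%, and Tubb3 at 1.01, 2.02 and 0.811% and 4.62, 4.697 and 3.95%. Every one of these D6 values was above every D0 value, as was the overall rate with its higher dose.

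Each rate was then divided by the overall rate of its own library, which sets a common scale but leaves in the background, 12.01% of the overall 15 h rate at D0 and 3.58% at D6. The part of that background in the relative values was not tested. On this scale Tubb5 was labeled to 1.07, 0.954 and 0.939 times the overall rate at D0 and 0.988, 1.04 and 1.03 at D6. Tubb2b was at 0.764, 0.759 and 0.756 and 0.788, 0.846 and 0.811, below 1 in each library of both states. Tuba1a was at 0.665, 1.002 and 0.781 and 0.906, 0.955 and 0.949, and Tubg1 at 1.05, 1.49 and 1.32 and 1.13, 0.884 and 1.06. No transcript was called different between the states in this relative labeling (0% of 14426 by edgeR, with 1012 at an unadjusted p under 0.05, and 241 by DESeq2). The members' log2 differences ran from -1.56 ± 1.31 (SE) for Tubb6 to 1.18 ± 0.41 (SE) for Tuba1c (adjusted p = 0.588). Without D6 replicate 9 Tuba1c was at 0.54 and Tubb6 at -0.91, and without D6 replicate 7 Tubb6 was at -2.52. The value of Tuba1c at D6 rested on few bases, with 21444, 6459 and 3728 covered T positions, and was 1.14, 1.06 and 2.98 times the overall rate, the last library standing far above the others.

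Uptake of label was followed as the percentage of each gene's own mean rate after 15 h. Over all 3′ UTRs the rate at the second time point (3 h in the methods, 1 h in the labels) was 11.3% of the 15 h rate at D0 and 4.88% at D6, against 12.01% and 3.58% without 4sU, so that label was near the level without 4sU. It was then at 38.8% and 42.1%, and to 87.5% and 77.8% at 9 h. At the third time point Tubb5 was at 20.4, 20.3 and 22.9% at D0 and 28.5, 28.7 and 22.6% at D6, and Tuba1a at 15.4, 20.7 and 15.99% and 23.3, 25.4 and 23.2%. Both genes were below the overall course at that point in each library. At 9 h Tubb5 was at 73.9, 68.9 and 75.996% and 84.4, 78.9 and 80.1%, Tuba1a at 65.8, 48.96 and 57.9% and 84.2, 69.2 and 76.1%, and Tubb2b at 90.1, 76.7 and 94.7% and 88.2, 51.7 and 72.4%.

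**Figure D4:**
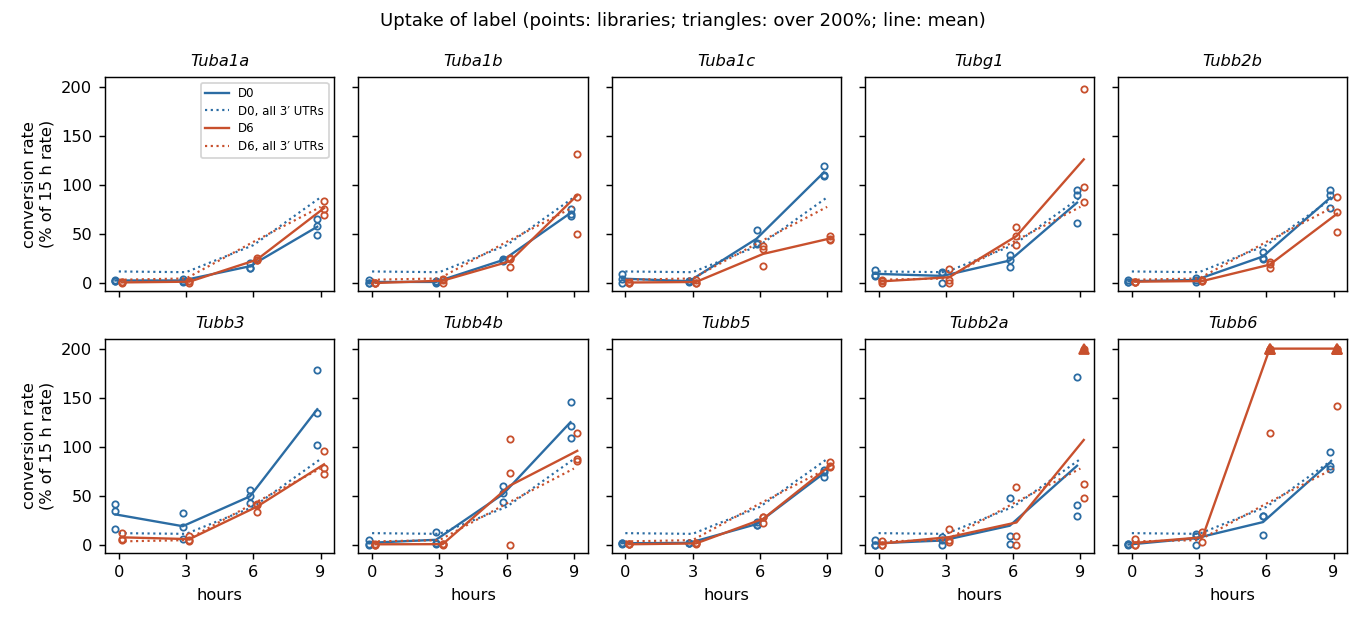
Conversion rate as a percentage of the gene's mean rate after 15 h of 4sU (linear axis) against hours of 4sU in the methods, for each tubulin gene at D0 (blue) and D6 (red). Points are libraries, triangles stand for values over 200%, solid lines are means and dotted lines are all 3′ UTRs. Most genes stay near 0 at 3 h and lie between 17.4% and 60.5% on average at 6 h, and Tubb6 at D6 goes off the scale.

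Tuba1c was at the low end of the members' differences in uptake. It was at 109, 119 and 110.1% of its 15 h rate at D0 after 9 h and at 43.6, 48.6 and 44.99% at D6, without overlap. The D6 percentages depend on the 15 h rate of D6 replicate 9 given above, and with that library left out of the 15 h rate, a choice made after seeing the data, they were 63.8, 71.1 and 65.8%, still below D0. The log2 difference in uptake, 9 h over 15 h and D6 minus D0, was -1.299 ± 0.49 (SE) for Tuba1c (adjusted p = 0.572) and 2.23 ± 1.58 (SE) for Tubb6 (adjusted p = 0.945), the ends of the members' range. Without D6 replicate 9 the value of Tuba1c was -0.755 (adjusted p = 0.818), and that of Tubb6 ran from 1.57 without D6 replicate 9 to 3.21 without D6 replicate 7. The median over all transcripts was -0.44. No transcript passed (0% of 14426 by edgeR, with 1035 at an unadjusted p under 0.05, and 153 by DESeq2). Tubb6 had few bases at D6, with 2425, 95 and 1825 covered T positions at 9 h and none in D6 replicate 40.

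After the label was withdrawn, the overall rate stayed level at the second time point, at 99.4% of the 15 h rate at D0 and 101% at D6. It was then at 73.1% and 49.05%, and to 29.2% and 19.1% at 9 h. Tuba1a kept more of its label at D0, with 58.5, 54.5 and 47.7% left after 9 h, than at D6, with 27.5, 29.7 and 30.6%. Every D0 library was above every D6 library. Tubb2b had 47.7, 36.9 and 42.3% left at D0 and 30.01, 26.9 and 24.6% at D6, also without overlap. Tubb5 had 27.4, 34.3 and 27.95% and 27.3, 21.2 and 25.4%, groups that were only just apart. Tubb3 had 26.7, 51.97 and 36.9% and 25.2, 28.5 and 22.3%, with overlap. The overall rate was likewise lower at D6, at 19.1% against 29.2%, and the share of all transcripts without overlap was not counted. At D6 Tuba1c went furthest down, with 5.48, 0.507 and 0.166% left, against 22.1, 27.1 and 11.9% at D0. At D6 it was at 73.2, 27.6 and 30.7% at the second time point and 0 and 2.53% at the third, where D6 replicate 14 had only 34 covered T positions for this gene. With D6 replicate 9 left out of the 15 h rate, the second time point was at 107, 40.3 and 44.9%, the third at 0 and 3.698%, and 9 h at 8.01, 0.741 and 0.243%.

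**Figure D5:**
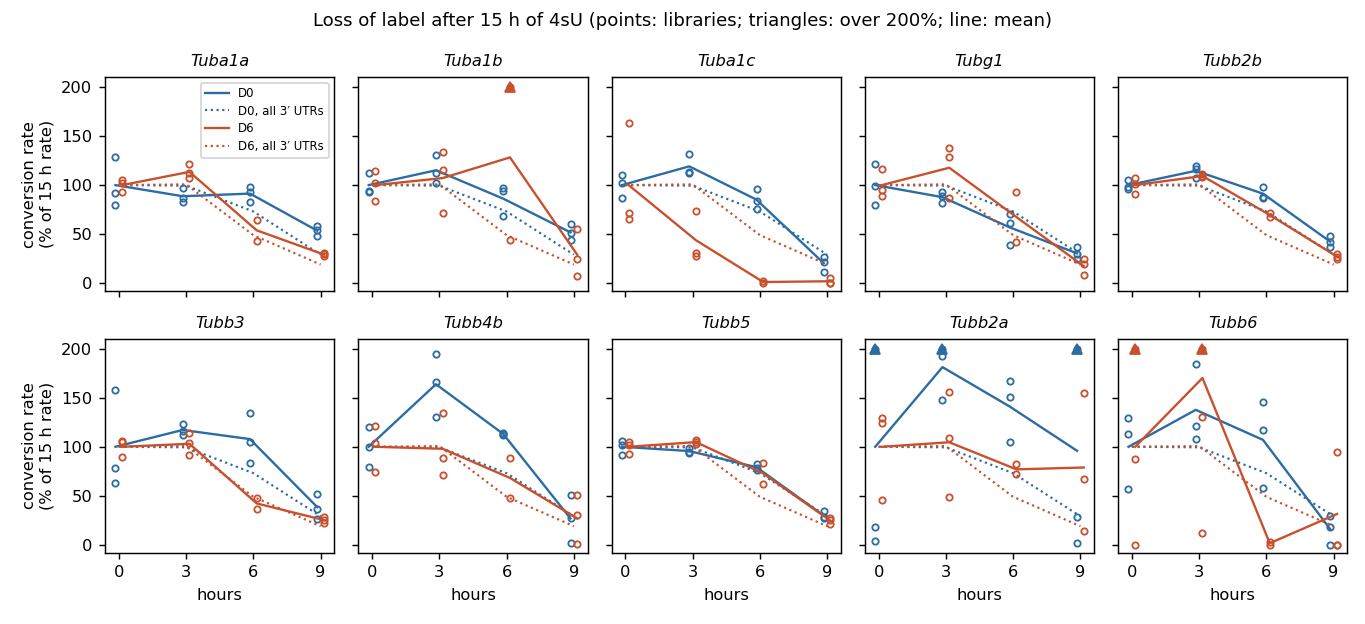
Conversion rate as a percentage of the gene's mean rate after 15 h of 4sU (linear axis) against hours after withdrawal in the methods, for each tubulin gene at D0 (blue) and D6 (red). Points are libraries, triangles stand for values over 200%, solid lines are means and dotted lines are all 3′ UTRs. At 9 h Tuba1a stays above the overall course in both states, and Tuba1c at D6 drops to 2.05% on average (3.00% with D6 replicate 9 left out of its 15 h rate).

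In the fit over all 23 decay libraries, the slope of the log2 rate on hours differed between D6 and D0 by a median of -0.10 per hour over all transcripts, and 2 of 14426 transcripts, 0.0139%, passed a test of that difference (890 at an unadjusted p under 0.05, and 122 called by DESeq2). No member passed. The difference was -0.13 ± 0.045 (SE) per hour for Tuba1a (adjusted p = 0.481) and -0.42 ± 0.14 (SE) for Tuba1c (adjusted p = 0.49998), or -0.70 without D6 replicate 16, which did not pass either. On the labels' hours, Tuba1a passed at -0.12, adjusted p = 0.0301 (adjusted p 0.0301 to 0.988 over 28 alternatives).

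The slopes were then set against the overall course of the same libraries, in log2 per hour, so that a value above 0 means label lost more slowly than from all 3′ UTRs together. At D0 the median transcript was at -0.08, and 204 transcripts, 1.41%, passed. Among them were Tuba1a, at 0.10 ± 0.020 (SE) (adjusted p = 0.00261), and Tubb2b, at 0.057 ± 0.013 (SE) (adjusted p = 0.00903), which both lost label more slowly. Tuba1a passed in each of 28 alternatives. Tubb2b did not without D0 replicate 34 (0.048, adjusted p = 0.0883), with DESeq2 (adjusted p = 0.0723) or on labeled reads over reads (0.035, adjusted p = 0.163). At D6 the median transcript was at -0.08 as well, and 270 transcripts, 1.87%, passed. Tubb2b, at 0.062 ± 0.013 (SE) (adjusted p = 0.00416), and Tubb5, at 0.052 ± 0.013 (SE) (adjusted p = 0.0266), lost label more slowly, and Tuba1c lost it faster, at -0.38 ± 0.081 (SE) (adjusted p = 0.00542). Tubb2b passed at D6 in each of 28 alternatives.

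The call for Tubb5 at D6 was lost without D6 replicate 7 (0.050, adjusted p = 0.0721), D6 replicate 8 (0.053, adjusted p = 0.0542), D6 replicate 9 (0.053, adjusted p = 0.0512) or D6 replicate 18 (0.049, adjusted p = 0.0927), with the hours of the labels (0.038, adjusted p = 0.0792) and with DESeq2 (adjusted p = 0.248, 0.00547 to 0.248 over 28 alternatives). The call for Tuba1c was lost without D6 replicate 9 (-0.32, adjusted p = 0.0509), the library with the high 15 h rate, and the slope was -0.67 without D6 replicate 16 (adjusted p = 1.88e-05). Tuba1a at D6 was at 0.064 ± 0.021 (SE) (adjusted p = 0.0983) and passed without D6 replicate 14 (0.070, adjusted p = 0.0229), with the hours of the labels (0.064, adjusted p = 0.0212) and with 0 and 9 h only (0.069, adjusted p = 0.0238). D6 replicate 14 is the shallow library described above. The relative slopes differed between the states for 3 transcripts, 0.0208%, none of them a member (1097 at an unadjusted p under 0.05, and 99 called by DESeq2). The difference was -0.33 ± 0.11 (SE) for Tuba1c (adjusted p = 0.371) and 0.042 ± 0.018 (SE) for Tubb5 (adjusted p = 0.572). Without D6 replicate 16 (-0.62, adjusted p = 0.0164), Tuba1c passed (adjusted p 0.0164 to 0.6404 over 27 alternatives). A gene that passed in only 1 state was therefore not shown to differ between them.

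Half-lives were fitted as in the methods, as an exponential through the rates relative to 15 h, and are given with the standard error of the fit and no test. Only fits with R² over 0.6 were kept. For decay at D0 these were Tubb5, at 555 ± 109 min, and Tubg1, at 415 ± 65.6 min. That is 2 of 10 members, where 14.9% of 14426 transcripts met the criteria with a median of 285.2 min. For decay at D6 there were 5, where 12.9% of transcripts did with a median of 239.8 min. They were Tubb2b at 515 ± 134 min, Tubb5 at 493 ± 124 min, Tuba1a at 484 ± 134 min, Tubb3 at 389 ± 87.2 min and Tuba1c at 124 ± 44.2 min. Except for Tuba1c, these fits lay above the median of the transcripts that met the criteria. On these hours Tubb5, the gene with the most covered bases, differed between the states by less than the error of either fit. This did not hold with 0 and 9 h only, at 309.8 ± 25.6 min at D0 and 267 ± 19.8 min at D6. On the labels' hours, at 372 ± 35.3 and 328 ± 50.6 min, the difference was larger than the D0 error and smaller than the D6 error.

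For synthesis at D0, 7 members met the criteria (21.9% of transcripts, median 415.5 min). Tuba1a was slowest at 704 ± 128 min and Tubb4b fastest at 242 ± 77.9 min, with Tuba1c at 286 ± 80.7 min, Tubb2b at 425 ± 97.7 min, Tubb6 at 446 ± 102 min, Tuba1b at 538 ± 106 min and Tubb5 at 541 ± 113 min. At D6 there were 5 (9.32%, median 380.6 min). Tubb3 was at 394 ± 72.7 min, Tubb5 at 463 ± 100.1 min, Tuba1a at 503 ± 107 min, Tubb2b at 570 ± 131 min and Tuba1c at 734 ± 95.9 min. The value of Tuba1c was 458 ± 74.1 min without D6 replicate 9, the library with the high 15 h rate, and 458 to 886 min over the libraries left out. From labeled reads over reads it was 524 ± 97.9 min. With the background subtracted, the fits that met the criteria were as many in each case. Tubg1 was then at 361 ± 62.1 min for decay at D0 and Tubb3 at 350.1 ± 84.5 min for decay at D6.

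The half-lives depended on the hours. With the hours of the labels, decay half-lives at D0 were 372 ± 35.3 min for Tubb5 and 275 ± 42.3 min for Tubg1, and Tuba1b, at 670.4 ± 170.001 min, Tuba1a, at 661 ± 139 min, Tubb2b, at 575 ± 123 min, and Tuba1c, at 376 ± 102 min, also met the criteria. At D6 they were 341 ± 56.8 min for Tubb2b, 328 ± 50.6 min for Tubb5, 318 ± 69.8 min for Tuba1a, 317 ± 99.8 min for Tubb4b, 299 ± 101 min for Tubg1, 248 ± 48.4 min for Tubb3 and 47.6 ± 18.9 min for Tuba1c. For synthesis at D0 the same hours gave 488 ± 41.2 min for Tuba1a, 357 min for both Tuba1b and Tubb5, 289 ± 40.7 min for Tubb6, 270.4 ± 36.2 min for Tubb2b, 172 ± 36.5 min for Tuba1c and 145 ± 39.8 min for Tubb4b. Tubg1 also met the criteria there, at 297 ± 47.9 min. At D6 they gave 547 ± 62.6 min for Tuba1c, 379 ± 53.7 min for Tubb2b, 329 ± 35.8 min for Tuba1a, 298 ± 33.2 min for Tubb5 and 249 ± 27.2 min for Tubb3. Tuba1b, at 277 ± 72.8 min, Tubb4b, at 166 ± 55.9 min, and Tubg1, at 149 ± 63.3 min, met the criteria at D6 as well. For the members named on both, each value was shorter than on the methods' hours. With those hours 6 members met the criteria for decay at D0 and 7 at D6, and 8 for synthesis in each state, where 23.2% and 19.9% of transcripts did for decay and 43.1% and 21.7% for synthesis. The median over the transcripts that met them moved as well, to 202.7 min for decay at D0 and 153.8 min at D6.

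The methods and the labels agree on 0 and 9 h. Fitted to these time points alone, the decay half-life at D0 was 599 ± 170.2 min for Tuba1a, 569 ± 83.8 min for Tuba1b, 436 ± 30.5 min for Tubb2b, 315 ± 69.1 min for Tubg1, 309.8 ± 25.6 min for Tubb5, 285 ± 93.5 min for Tubb4b, 235 ± 37.9 min for Tuba1c and 204 ± 104 min for Tubb6. At D6 it was 305 ± 20.4 min for Tuba1a, 303 ± 88.2 min for Tuba1b, 287 ± 25.3 min for Tubb2b, 286 ± 102 min for Tubb4b, 272 ± 27.9 min for Tubb3, 267 ± 19.8 min for Tubb5, 214 ± 42.3 min for Tubg1 and 96.3 ± 242 min for Tuba1c, whose error was larger than its value. The medians over the transcripts that met the criteria were 179.98 min at D0 and 170.1 min at D6. Synthesis half-lives were 436 ± 40.1 min for Tuba1a, 298 ± 12.5 min for Tuba1b, 286 ± 12.5 min for Tubb5, 202 ± 23.5 min for Tubb6 and 182 ± 24.7 min for Tubb2b at D0, where Tuba1c and Tubb4b did not meet the criteria. Tubg1, at 218 ± 55.6 min, did meet them at D0. At D6 they were 612 ± 19.1 min for Tuba1c, 304 ± 56.8 min for Tubb2b, 258 ± 21.03 min for Tuba1a, 224.3 ± 7.84 min for Tubb5 and 217 ± 40.6 min for Tubb3. Tuba1b, at 165 ± 105 min, and Tubb4b, at 117 ± 52.4 min, also met the criteria at D6. These were 6 members at D0, where 32.4% of transcripts met the criteria, and 7 at D6, where 20.7% did. With all libraries, Tuba1c thus had the longest synthesis half-life at D6 of the members that met the criteria, under each choice of hours.

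Genes that serve tubulin were described as lists, beside a median log2 difference of -0.04 and 13.1% called over all transcripts without 4sU. Of 14 tubulin folding cofactors and prefoldin subunits, edgeR called 0, with 3 at an unadjusted p under 0.05 and 2 called by DESeq2, and the median was 0.32. Of 10 tested genes of the gamma-tubulin ring complex and its anchors edgeR called 0, with 0 at an unadjusted p under 0.05 and 0 by DESeq2, and the median was -0.33. Of 12 genes of the autoregulation machinery edgeR called 0, with 2 at an unadjusted p under 0.05 and 1 by DESeq2, and the median was 0.57. In the last list Ttc5, which reads the nascent chain, was at 0.33 ± 0.99 (SE), Scaper at 0.57 ± 1.26 (SE) and Cnot11 at -0.24 ± 0.46 (SE). After 15 h of 4sU, where 14.9% of all transcripts were called, 3 of 11 autoregulation genes passed, all of them CCR4-NOT subunits, and they are named after their values were seen. The deadenylases Cnot6l (log2 change 1.70, adjusted p = 0.00695) and Cnot7 (1.60, adjusted p = 0.00993) rose, and Cnot9 (-1.32, adjusted p = 0.0344) fell. Of 20 tested genes that modify tubulin after translation, 3 rose and 0 fell without 4sU, with a median of 0.92. They were Vash1, which removes the last tyrosine of alpha tubulin, at 2.87 ± 0.50 (SE) (adjusted p = 0.00365), Lrrc49, a subunit of the polyglutamylase complex, at 2.96 ± 0.66 (SE) (adjusted p = 0.0137), and Atat1, the alpha tubulin acetyltransferase, at 4.99 ± 1.26 (SE) (adjusted p = 0.0252). After 15 h of 4sU 3 of 17 tested genes of this list rose and 0 fell. Vash1 (3.14) and Atat1 (5.19) were again among them, and the third, named after its value was seen, was Ttl, the ligase that puts the tyrosine back, at 1.77 ± 0.37 (SE) (adjusted p = 0.00847). Without 4sU Ttl was at 0.93 (adjusted p = 0.233), and after 15 h Lrrc49 was at 1.72 (adjusted p = 0.114).

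Of 10 further tubulin genes, 4 had enough reads to be tested and 1 passed. Tuba4a, an alpha isotype, was at 83.2 ± 21.5 CPM (SD, n = 3) at D0 and fell to 0.583 CPM at D6, where the 3 libraries held 7 reads in all. Tuba3a, Tuba3b, Tuba8, Tubal3, Tubb1 and Tubg2 had too few reads to be tested.

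Over the means of the 16 groups, the genes whose log2 CPM followed Tubb3 most closely were Ncam1 (Pearson r = 0.992), Hoxb8 (0.991) and Mapt (0.991), which code for a neural adhesion molecule, a homeobox factor and the tau protein. The groups fall into 2 states, and within a state, over 8 groups, r was 0.340 to 0.638. The points share libraries between genes, and the values are a description.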

How the data were processed

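The libraries were 3′ end SLAM-seq libraries. The authors mapped and counted them with SLAMdunk 0.3.3 (version per the file headers) on mm10. For each 3′ UTR interval the deposited tables give counts of reads, of reads with a T>C conversion, of covered T positions and of conversions, the conversion rate as a fraction, and reads as CPM. Positions of called SNPs were masked by the authors, and replicates were not pooled. Only the counts were used. The deposited fraction is conversions over covered T positions, and the deposited CPM, which is over all mapped reads, was replaced by CPM over the reads on 3′ UTRs. Of 30609 transcripts, 28190 were mRNAs. Intervals were summed per transcript, and reads of a shared 3′ UTR count for each of its transcripts.

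D6 and D0 were compared with the quasi-likelihood test of edgeR 4.0.16 (R 4.3.3) after its default filter and TMM scaling, fitted over all mRNA transcripts with Benjamini-Hochberg adjustment, and a transcript was called at an adjusted p under 0.05. SE is the log2 change divided by the square root of the F statistic. Conversion counts were fitted with the covered T positions as an offset, times the library's overall rate for relative values, in the 14426 transcripts whose covered T positions averaged 1000 or more. Half-lives were least-squares exponential fits (Python 3.11.15, numpy 2.4.6) and were kept with R² over 0.6, a half-life of at most 5000 min and a fitted value of at least 0.001 at the second time point. The label hours were 15 h in the protocols and 13 h in the normalization text of the methods. The scripts were tested on simulated data.

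The members and the gene and marker lists were chosen with earlier results of these data known. All members are named. From each other list up to 3 genes per direction with the smallest p among those called without 4sU are named. Ttc5, Scaper and Cnot11 are named as the factors of the background, and Cnot6l, Cnot7, Cnot9 and Ttl, called only after 15 h of 4sU, after their values were seen. Also named, for Tubb3 and Tubb5, are the 3 genes of highest correlation over the 16 groups, with a pseudocount of 0.5 CPM; those of Tubb5 are not reported here. Alternatives were DESeq2 1.42.0, other size factors, no filter, 1 transcript per 3′ UTR, a minimum of 10000 covered T positions, labeled reads over reads, 0 and 9 h only, the labels' hours, half-lives with the background subtracted or fitted to the time points' means, reads per base, and each library left out.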

Additional observations from a re-analysis of the deposited data

How the results depend on the processing

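Tuba1a, Tubb2b, Tubb3 and Tubb6 without 4sU, Tuba1a, Tuba1c, Tubb2b and Tubb3 after 15 h, and Tuba1a in labeled reads were called under every alternative run. DESeq2 called more transcripts than edgeR throughout: 3209 against 2115 without 4sU, 3 against 0 for 4sU at D0, 248 against 8 at D6, 96 against 0 for the difference of these effects, 1833 against 541 in labeled reads, 241 against 0 in labeling after 15 h, 153 against 0 in uptake, 122 against 2 for the difference in decay, and 977 against 204 at D0, 1033 against 270 at D6 and 99 against 3 for their difference in relative decay. With it 1 member was called in relative decay in each state (2 and 3 with edgeR), and Tuba1c had no adjusted p there. One transcript per 3′ UTR gave 1357 transcripts without 4sU, 1504 after 15 h, 1 for 4sU at D6 with 0 members, and 1 for the difference of the 4sU effects. Without a filter these last 2 counts were 82 and 38, and with other size factors 1 transcript and 0 members were called for 4sU at D6. The value of Tubg1 without 4sU turned to 0.017 with 1 transcript per 3′ UTR and to 0.0105 without a filter.

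A minimum of 10000 covered T positions gave 9 transcripts in labeling after 15 h and 313 in relative decay at D0. Labeled reads over reads gave 0 for the difference in decay, 1 for that in relative decay, and 1 member at D0. The hours of the labels gave 103 transcripts and 1 member for the difference in decay, 734 at D0, 691 at D6 and 24 for the difference in relative decay, and 6 members with a decay half-life at D0 and 8 with a synthesis half-life at D6. With 0 and 9 h only there were 30 and 318 transcripts for the difference in decay and relative decay at D0, and 8 members with a decay half-life in each state (34.2% of transcripts at D0 and 48.2% at D6). Fits to the time points' means gave 3 and 7 members for decay at D0 and D6 (45.3% and 47.5% of transcripts) and 9 and 8 for synthesis (47.7% and 53.7%). Shares moved per base of 3′ UTR, to 20.9% (Tubb2b), 3.11% (Tubb3) and 54.5% (Tubb5) at D0 and to 80.6% (Tuba1a), 61.7% (Tubb2b), 10.6% (Tubb3) and 23.3% (Tubb5) at D6, and in the libraries after 15 h, to 9.02% (Tubb2b) and 85.6% (Tubb5) at D0 and 42.1% and 50.2% at D6.

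With each library left out in turn, 4 to 7 members and 1253 to 2307 transcripts were called without 4sU, 4 to 8 and 1416 to 2257 after 15 h, 0 to 1 and 0 to 3 for 4sU at D6, and 1 to 5 and 164 to 1455 in labeled reads. The difference of the 4sU effects gave 0 to 9 transcripts, labeling after 15 h 0 to 2, uptake 0 to 52 and the difference in decay 0 to 4. Relative decay gave 1 to 2 members and 83 to 444 transcripts at D0, 1 to 4 and 169 to 436 at D6, and 0 to 1 and 0 to 8 for the difference. Decay half-lives at D6 were kept for 3 to 6 members. Tubb5 and Tubg1 without 4sU changed sign, from -0.12 to 0.29 and from -0.34 to 0.27. The causes of these changes were not tested. No paired analysis was possible because the groups share no replicate numbers in the labels.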

Other observations

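The deposited intervals differ from the GENCODE 3′ UTR mostly by a few bases, except for Tubb2b, with 463 of 723 bases. The AU-rich pentamer ATTTA, searched on the transcribed strand of the GENCODE 3′ UTR, was found 2 times in Tubb3 and in Tubb5, 1 time in Tubb2b and in Tubg1, and 0 times in Tuba1a, Tuba1b, Tuba1c, Tubb2a and Tubb4b. Of all 3′ UTRs of 0.8 to 1.2 times the length of the gene's own, 37.03% held it for Tubb3, 74.8% for Tubb5, 62.2% for Tubb2b and 23.5% for Tubg1. Over the 9 genes the like-length shares ran from 15.1% to 74.8%.

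In D0 replicate 26, Tuba1a was at 534 CPM and Tuba1c at 505 CPM, in D0 replicate 56 they were at 796 and 872 CPM, and in D0 replicate 72 at 939 and 509 CPM. In the other 2 libraries of the same groups Tuba1a lay between 1174 and 1788 CPM and Tuba1c between 281 and 405 CPM. Tubg1 was at 535, 385 and 404 CPM in these 3 libraries and at most 351 CPM in the others of their groups.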
